A study of Homo sapiens with 3 samples.

Results

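The NF-κB subunits and their inhibitors were examined in PANC-1 cells, an established line from a human pancreatic cancer, after exposure to cantharidin (CAN) or okadaic acid (OA). The 10 genes were chosen by name: the subunit genes NFKB1, RELA, RELB and REL, the feedback inhibitors NFKBIA, NFKBIB, NFKBIE and TNFAIP3, and the nuclear IκB genes NFKBIZ and BCL3. They made up 10 of the 19699 genes that could be named on the array and were measured by 12 of its 34041 probes, with 2 probes each for RELA and NFKBIB. Both agents inhibit serine/threonine phosphatases, protein phosphatase 2A (PP2A) among them, and the study asked which transcripts changed with each.

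Cy3-labelled total RNA was measured on 3 human oligonucleotide arrays of a single design, on which the brightness of a spot reports the transcript that its probe matches. The control cells are labelled as control, with no dose or time given. The CAN cells received 20 µM cantharidin and the OA cells 20 µM okadaic acid, each for 24 h. No genetic change is stated for any group. The okadaic acid dose is given as the sample label states it and was not checked against another source. This agent is usually applied at nanomolar doses, so the OA values and the comparison of the agents hold for the labelled dose only. Each group was 1 array of 1 cell line, so no difference below has a replicate check, no test between groups was possible and no p-value is given. Both comparisons with control used the same control array, so they are not independent of each other.

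NF-κB is a family of transcription factors that act as pairs of subunits. In resting cells the pairs are held in the cytoplasm by IκB proteins, and IκB kinase releases them by marking the IκB proteins for degradation. NF-κB then drives transcription of several of its own inhibitors, which ends the response, and in pancreatic cancer cells the pathway is known for controlling survival and inflammatory genes.

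The promoters of several of these genes carry the κB decamer consensus, the sequence that NF-κB pairs bind. It was looked for on both strands in the 250 bases before the transcript start, for the 8 genes with an entry in the RefSeq promoter table (GRCh38.p14). RELB and NFKBIE had no entry. The 2 inhibitor promoters below are shown because NFKBIA and TNFAIP3 were among the genes that differed most between the agents. They are written 5′ to 3′ on the strand of the gene, with matches in capitals, and lie at chr14:35404750-35404999 on the minus strand (NFKBIA) and chr6:137867009-137867258 on the plus strand (TNFAIP3).
NFKBIA: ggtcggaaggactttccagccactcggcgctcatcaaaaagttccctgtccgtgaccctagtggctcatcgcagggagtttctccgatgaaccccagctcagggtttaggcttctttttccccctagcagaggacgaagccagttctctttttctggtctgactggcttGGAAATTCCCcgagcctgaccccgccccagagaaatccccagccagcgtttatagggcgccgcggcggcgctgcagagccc
TNFAIP3: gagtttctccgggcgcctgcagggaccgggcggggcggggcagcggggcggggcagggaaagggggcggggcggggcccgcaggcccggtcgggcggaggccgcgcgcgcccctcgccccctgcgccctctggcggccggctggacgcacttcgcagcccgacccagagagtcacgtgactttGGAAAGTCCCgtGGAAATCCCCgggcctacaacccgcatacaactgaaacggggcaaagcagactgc

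The NFKBIA match ran from 81 to 72 bases before the start. TNFAIP3 held 2 matches that did not overlap, from 67 to 58 and from 55 to 46 bases before its start. For NFKB1, REL and NFKBIZ, 60 bases around the match are shown, all from the plus strand, at chr4:102501285-102501344, chr2:60881502-60881561 and chr3:101827742-101827801.
NFKB1: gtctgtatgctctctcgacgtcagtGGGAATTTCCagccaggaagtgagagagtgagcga
REL: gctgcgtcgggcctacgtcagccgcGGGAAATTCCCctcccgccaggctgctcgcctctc
NFKBIZ: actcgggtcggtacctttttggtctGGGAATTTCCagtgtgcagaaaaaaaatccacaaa

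NFKB1 and NFKBIZ shared the same 10 letters, and the 11 capitals of REL are 2 overlapping matches. In all, 5 of the 8 promoters held a match, against 1380 of the 27305 promoters of the table (5.05%), and at least 2 matches were found in 0.645% of that table. No match was found in this window for RELA, NFKBIB or BCL3. A match is a run of letters and was not tested as a binding site. Of the genes with a match, NFKBIA, TNFAIP3 and NFKB1 differed between the agents past 1.5-fold, and REL and NFKBIZ did not. Of those without a match, RELA and NFKBIB differed and BCL3 did not. A link between match and difference was not tested.

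Signals are given as array intensities, and folds and log2 differences are relative to the 75th percentile of each array, an intensity of 784 for control, 713 for CAN and 936 for OA. A gene was called higher or lower at 1.5-fold. All 12 probes were well above background on all 3 arrays, and none of their spots was saturated. The ± after a log2 difference is the error from replicate spots of a probe, or of probes of like brightness for single-spot probes, and it leaves out variation between cultures. In bulk RNA, fewer cells with a transcript and less of it per cell cannot be told apart.

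Under CAN, 7 of the 10 genes were at least 1.5-fold higher than in control cells and 0 were lower. Among all 16644 genes compared, 27.5% were higher and 34.1% lower. The genes within 1.5-fold were NFKBIA, NFKBIE and BCL3. The median log2 difference of the 10 genes was 1.80, and over all genes it was -0.16. With OA, 9 of the 10 genes were higher and 1, BCL3, was lower. The background over 16166 genes was 28.1% higher and 28.8% lower, with a median log2 difference of 0.01 against 1.82 for the 10 genes.

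**Figure D1:**
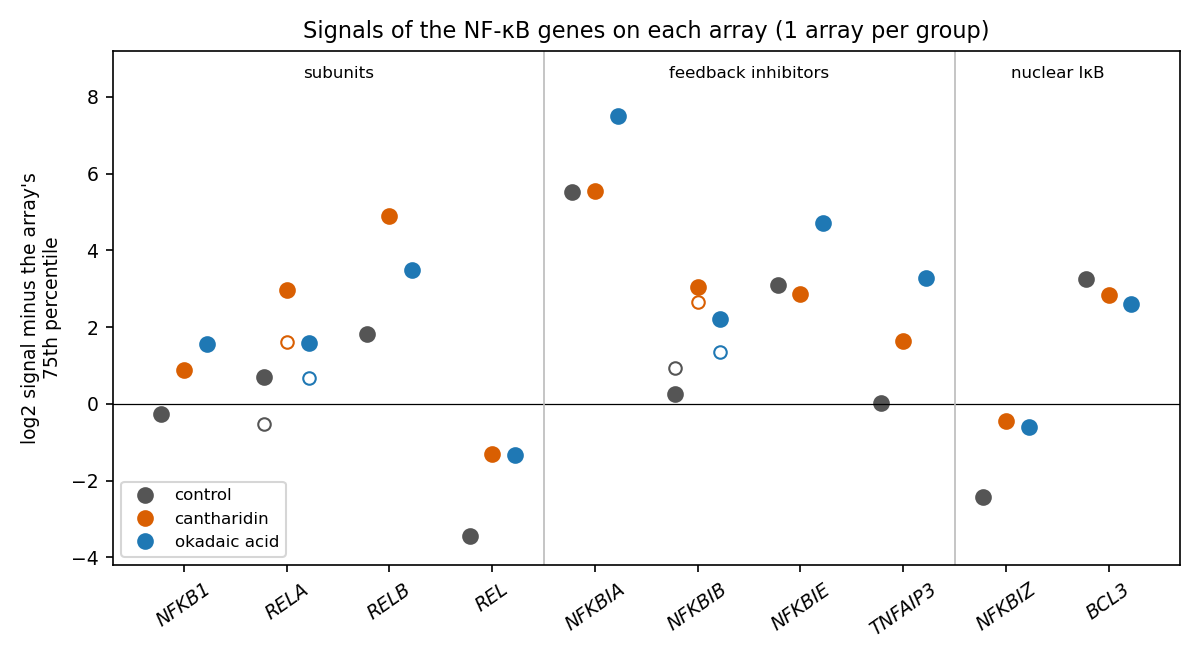
Signal of each of the 10 genes on the 3 arrays, as log2 of the intensity minus the array's 75th percentile, with filled circles for the brightest probe of a gene and open circles for the second probe of RELA and NFKBIB. Each point is 1 array, so there are no error bars, and heights are to be compared within a gene only. The CAN points of NFKBIA and NFKBIE lie beside the control points, whereas the OA points lie clearly above them.

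All 4 subunit genes were higher with both agents, with a median log2 difference of 2.21 under CAN and 1.74 under OA. RELB encodes the subunit best known from the non-canonical pathway, in which it pairs with p52. Its intensity was 2762 in control, 21334 in CAN and 10599 in OA cells. This was 8.50-fold higher under CAN (log2 3.09 ± 0.083), the largest rise of the 10 genes with that agent and above 96.8% of all genes compared. In OA cells the rise was 3.22-fold (1.69 ± 0.073).

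RELA encodes p65, the subunit with the strongest activation domain in the classical pair. Its brighter probe had 10 spots per array and gave 1281 in control, 5618 in CAN and 2825 in OA cells. The spots ranged from 1205 to 1403, from 5036 to 5944 and from 2736 to 2943, so those of the 3 arrays did not overlap. CAN cells were 4.83-fold higher (2.27 ± 0.035) and OA cells 1.85-fold higher (0.89 ± 0.024). The second RELA probe, with a single spot, read 548, 2178 and 1496, and gave 4.38-fold under CAN and 2.29-fold under OA. Both probes therefore put the CAN signal above the OA signal.

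NFKB1 encodes p105, the precursor of p50 and itself an inhibitor of the IκB kind. Its 10-spot probe gave 656 in control, 1312 in CAN and 2737 in OA cells, with spots from 626 to 695, from 1236 to 1404 and from 2553 to 2907. The order was thus control, CAN, OA, the reverse of RELA and RELB for the agents. CAN cells were 2.20-fold higher (1.14 ± 0.029) and OA cells 3.49-fold higher (1.81 ± 0.024).

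REL encodes c-Rel, a subunit best known from lymphocytes. It lay near the limit of what the array could measure, with a control signal 2.07 times the lowest signal counted as well above background. The intensities were 72.3 in control, 290 in CAN and 373 in OA cells. The agents gave nearly the same rise, 4.43-fold (2.15 ± 0.2) and 4.33-fold (2.11 ± 0.2). These folds depended on how background was treated, with 2.42-fold and 2.38-fold after the normexp correction and 6.17-fold and 5.60-fold in the authors' normalized table.

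The feedback inhibitors differed between the agents, with 3 higher and 1 lower under OA than under CAN at 1.5-fold, against 29.5% and 22.3% of all genes in that comparison. With OA, all 4 were at least 1.5-fold higher by their brightest probe, with a median log2 difference of 1.97. With CAN, NFKBIB and TNFAIP3 were higher and NFKBIA and NFKBIE were within 1.5-fold of control.

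NFKBIA encodes IκBα, the inhibitor that NF-κB induces most directly. Its 10-spot probe, with 8 spots used on each array, gave 35739 in control, 33086 in CAN and 168720 in OA cells. After scaling, the control spots ran from 5.45 to 5.57 and the CAN spots from 5.45 to 5.58 on the log2 scale, whereas the OA spots ran from 7.38 to 7.54. The CAN signal overlapped that of control, at 1.02-fold (0.03 ± 0.022), and its sign turned without scaling (-0.11). The OA signal was 3.96-fold higher (1.98 ± 0.024).

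**Figure D2:**
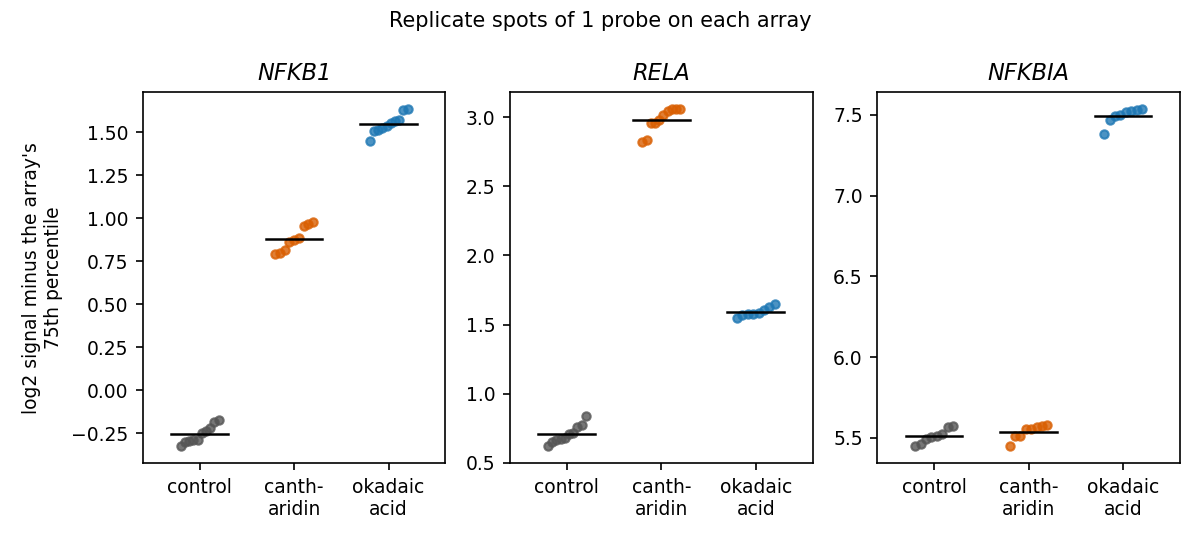
Replicate spots of the 10-spot probes of NFKB1, RELA and NFKBIA on each array, as log2 of the intensity minus the array's 75th percentile, sorted from low to high within an array, with the mean as a bar. Spots flagged as outliers are left out, which leaves 8 to 10 spots, and the vertical axes differ between panels. Control and CAN spots of NFKBIA overlap between 5.45 and 5.57, while for NFKB1 and RELA the 3 arrays are apart.

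NFKBIE encodes IκBε, which acts as a slower feedback inhibitor. Its intensity was 6721 in control, 5164 in CAN and 24584 in OA cells. As for NFKBIA, the control and CAN signals lay close and only OA stood apart. The CAN signal was 1.18-fold lower (-0.24 ± 0.086), within the threshold, and the OA signal was 3.06-fold higher (1.62 ± 0.07).

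TNFAIP3 encodes A20, a ubiquitin-editing enzyme that switches off signalling upstream of IκB kinase. The array intensities were 804 in control, 2236 in CAN and 9140 in OA cells, a rise at each step in that order. The gene was 3.06-fold higher with CAN (1.61 ± 0.093) and 9.52-fold higher with OA (3.25 ± 0.075). The OA rise was the largest of the 10 genes and exceeded that of 97.9% of all genes compared.

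NFKBIB encodes IκBβ, which is not a classical feedback target but is counted with the feedback inhibitors here. Its brighter probe gave 939 in control, 5880 in CAN and 4369 in OA cells, so here the CAN signal was the highest. The rises were 6.89-fold (2.79 ± 0.094) with CAN and 3.90-fold (1.96 ± 0.074) with OA. The second probe, matched to a non-coding NFKBIB transcript in RefSeq, read 1497, 4483 and 2408. It gave 3.30-fold with CAN but only 1.35-fold with OA, which was within the threshold, so the probes differed in the OA call.

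The nuclear IκB proteins bind NF-κB on chromatin and modify transcription there. NFKBIZ, which encodes IκBζ, gave intensities of 145 in control, 521 in CAN and 621 in OA cells. It was 3.95-fold higher with CAN (1.98 ± 0.13) and 3.58-fold higher with OA (1.84 ± 0.12), from a control signal 4.15 times the lowest one counted as well above background. BCL3 moved the other way, with 7513 in control, 5109 in CAN and 5709 in OA cells. It was 1.34-fold lower with CAN (-0.42 ± 0.087), within the threshold, and 1.57-fold lower with OA (-0.65 ± 0.068). Without scaling, the OA difference of BCL3 was -0.40 and no longer past 1.5-fold.

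**Figure D3:**
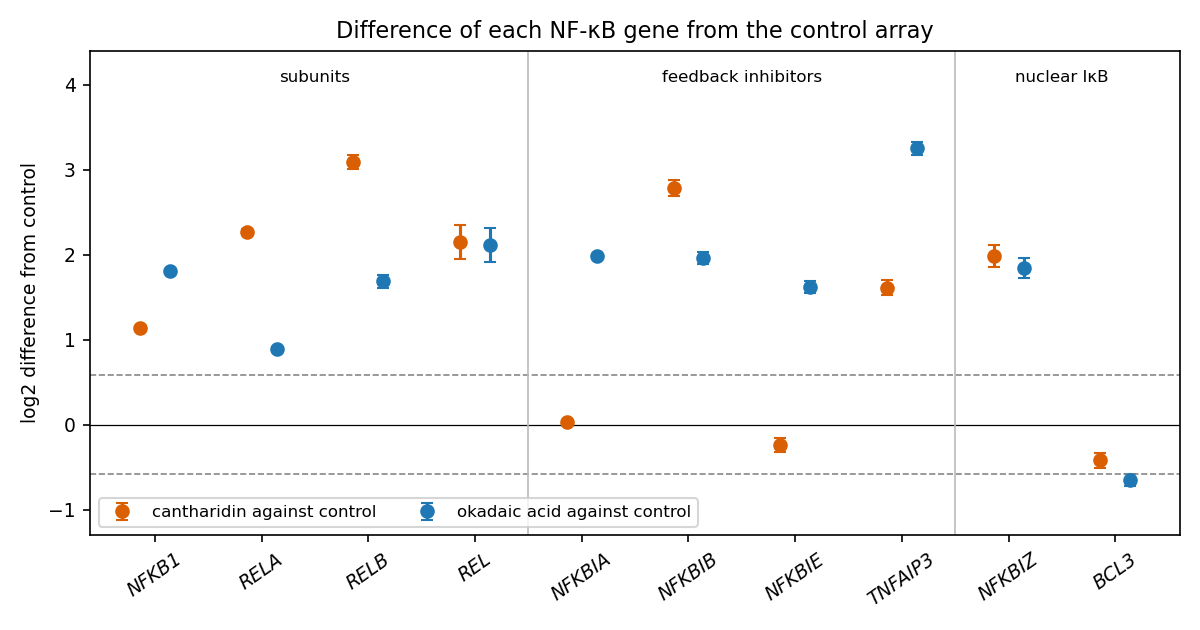
Log2 difference from the control array for each of the 10 genes under CAN and OA, with bars for the error from replicate spots and dashed lines at 1.5-fold in either direction. The smallest rises past the line are those of NFKB1 under CAN (1.14) and RELA under OA (0.89), and the lower call is that of BCL3 under OA (-0.65).

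The agents were then compared directly, OA against CAN, a comparison that does not use the control array. At least 1.5-fold higher signals under OA were found for 4 of the 10 genes and lower ones for 3. Of all 16200 genes compared, 29.5% were higher and 22.3% lower. The 4 were NFKBIA at 3.88-fold (1.96 ± 0.024), NFKBIE at 3.62-fold (1.86 ± 0.093), TNFAIP3 at 3.11-fold (1.64 ± 0.094) and NFKB1 at 1.59-fold (0.67 ± 0.03). NFKBIA, NFKBIE and TNFAIP3 ranked above 95.5%, 94.8% and 93.1% of all genes in this comparison.

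The genes lower under OA than under CAN were RELB, RELA and NFKBIB. RELB was 2.64-fold lower (-1.40 ± 0.089) and RELA 2.61-fold lower (-1.39 ± 0.031), with 1.91-fold for the second RELA probe. NFKBIB was 1.77-fold lower (-0.82 ± 0.093), which fell to -0.43 without scaling and was then within the threshold, and its second probe was 2.45-fold lower. For REL, NFKBIZ and BCL3 the agents were within 1.5-fold of each other, with log2 differences of -0.03 ± 0.11, -0.14 ± 0.1 and -0.23 ± 0.09, all of which turned positive without scaling. The call of NFKB1 rested on the processing, at 0.57 after normexp correction and 0.52 under median scaling.

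**Figure D4:**
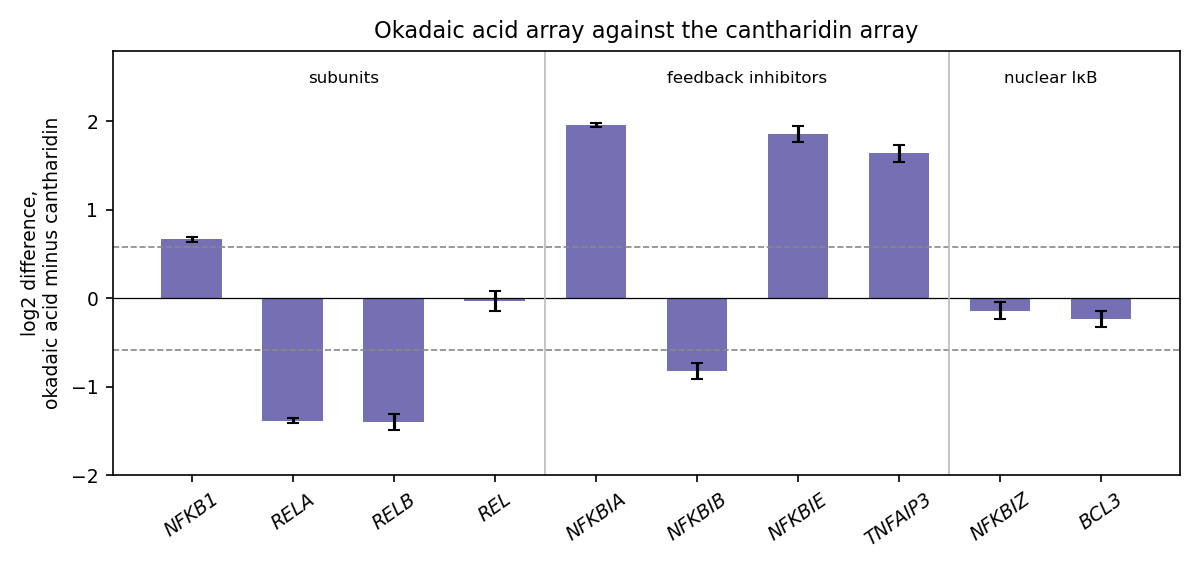
Log2 difference between the OA and CAN arrays for each of the 10 genes, with bars for the error from replicate spots and dashed lines at 1.5-fold in either direction. NFKBIA (1.96), NFKBIE (1.86) and TNFAIP3 (1.64) lie far to the OA side, and RELA (-1.39) and RELB (-1.40) to the CAN side.

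The balance of inhibitor and subunit transcripts was also followed as the change of the ratio of their signals within an array. These ratios restate the differences given above and are no separate measurement. They do not depend on a scaling by a single value per array, but they can change under quantile normalization. All 4 inhibitors were set against all 4 subunits. With CAN, the NFKBIA ratio was lower than in control cells for every subunit, from 2.16-fold against NFKB1 to 8.34-fold against RELB. With OA it was between 1.09-fold lower against REL and 2.14-fold higher against RELA, the subunit with the smallest rise under OA. The NFKBIE ratio was likewise lower with CAN for every subunit, from 2.60-fold to 10.05-fold. Such a fall against every subunit needs only a CAN difference below that of NFKB1 (1.14). This held for 82.1% of all genes compared, so it is not particular to these inhibitors. Under OA the NFKBIE ratio was 1.66-fold higher against RELA but 1.14-fold lower against NFKB1, 1.05-fold lower against RELB and 1.41-fold lower against REL.

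The TNFAIP3 ratio was higher with OA for every subunit, from 2.20-fold against REL to 5.16-fold against RELA. With CAN it was 1.39-fold higher against NFKB1 and lower against the other subunits, by up to 2.78-fold against RELB. For NFKBIB the CAN ratio ran from 1.23-fold lower against RELB to 3.13-fold higher against NFKB1, and the OA ratio from 1.11-fold lower against REL to 2.11-fold higher against RELA. These NFKBIB ratios hold for its brighter probe only. Its second probe rose by 0.43 with OA, less than every subunit, of which RELA rose least (0.89). Between the agents, the ratios of NFKBIA, NFKBIE and TNFAIP3 were higher with OA for every subunit, by 1.96-fold (TNFAIP3 to NFKB1) to 10.3-fold (NFKBIA to RELB). Some ratios against REL turned with the background treatment. After normexp correction REL rose by 1.28 with CAN, less than TNFAIP3 (1.48). With OA it rose by 1.25, less than NFKBIA (2.02), NFKBIB (1.93) and NFKBIE (1.64). The lower ratios against REL given above for these cases were then higher. Quantile normalization also turned the NFKBIA ratio to REL with OA, at 2.23 for NFKBIA and 2.05 for REL. A change in such a ratio shows that its parts changed unequally and not which of them did.

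The remaining pathway was described by gene lists, each by its counts and median. For reading them, the shares over all genes were 27.5% higher and 34.1% lower with CAN, with a median of -0.16, and 28.1% higher and 28.8% lower with OA, with a median of 0.01. For the 4-fold counts, a log2 difference of 1.98 lay above 91.3% of all genes with CAN (NFKBIZ). With OA, 1.98 lay above 92.7% of them (NFKBIA). The share of all genes that were 4-fold lower was not computed. Of 33 receptors, adaptors and kinases upstream of NF-κB, 31 could be compared with control under each agent, and IKBKE and MALT1 were below background on all arrays. CAN gave 18 higher and 3 lower (median 0.79), and OA gave 16 higher and 6 lower (median 0.59). Between arrays that measured them, 6 of these genes changed at least 4-fold with 1 or both of the agents. RIPK1, a kinase of the TNF receptor complex, read 238, 1913 and 754 in control, CAN and OA cells, with log2 differences of 3.15 and 1.41. BIRC3, a ubiquitin ligase of the same complex and an NF-κB target, read 1348, 4428 and 12150, with differences of 1.85 and 2.92. The adaptors TAB3 (2.36 and 2.57) and TRAF1 (1.73 and 2.46) were higher with both agents. TAB1 (-2.03 and -2.37) and the TNF receptor TNFRSF1A (-1.89 and -2.19) were lower with both.

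TRAF3 and IRAK1 crossed the threshold in opposite directions, higher with CAN (0.63 and 1.13) and lower with OA (both -0.68). TRAF3 was close to the threshold on both sides and was within it under both agents after normexp correction or without scaling. Without scaling IRAK1 under OA was also within it, at -0.42. Among the IκB kinase subunits, CHUK, which encodes the α subunit, read 1750 in control, 1572 in CAN and 4997 in OA cells. The log2 differences of CHUK were -0.02 and 1.26. IKBKB, which encodes the β subunit, gave 0.79 and 0.24, and IKBKG, the regulatory subunit, gave 0.89 and -0.53.

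Of 25 further inhibitors and regulators, 24 had a probe. With CAN, 13 of 22 compared were higher and 3 lower (median 0.90), and with OA 13 of 23 were higher and 2 lower (median 0.91). Among genes measured well above background on both arrays compared, 8 changed at least 4-fold with 1 or both of the agents by their brightest probe, and the 6 with the largest change are given here. OTULIN, a deubiquitinase of linear chains, read 104 in control, 398 in CAN and 3015 in OA cells (2.07 and 4.60). CYLD, a deubiquitinase as well, read 47.6, 192 and 570 (2.15 and 3.33). ZC3H12A, an RNase that degrades inflammatory transcripts, read 1950, 10660 and 24870 (2.59 and 3.42). These 3 genes were higher with OA than with CAN, as were NFKBIA, NFKBIE and TNFAIP3. The list as a whole was not set apart in this way. Directly compared, 8 of 22 were higher under OA than under CAN and 5 were lower, with a median of 0.18. Over all genes, 29.5% were higher and 22.3% lower, with a median of 0.13.

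NFKBID, a nuclear IκB protein, read 97.1 in control, 244 in CAN and 690 in OA cells (1.47 and 2.57). TNIP2, a partner of A20, read 212, 1084 and 1091 (2.49 and 2.11). TANK, which binds TRAF proteins, read 903, 6990 and 2321 (3.09 and 1.11), but its second probe gave -0.24 and -0.14. The TANK rise therefore depended on the probe. ITCH, a ubiquitin ligase, was below background with both agents and so is not among the 8. From a control intensity of 158 it fell at least 5.86-fold with CAN and at least 3.25-fold with OA.

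NF-κB target genes were mostly higher with OA than with CAN. Of the 30 targets compared, CAN gave 12 higher and 9 lower with a median of 0.31, whereas OA gave 19 higher and 1 lower with a median of 1.83. Directly compared, 22 of 30 were higher under OA than under CAN and 1 was lower, with a median of 1.38 against 0.13 for all genes, of which 29.5% were higher and 22.3% lower. At least 4-fold changes were found for 15 targets by their brightest probe. The 6 largest were in the cytokine genes CXCL8, CXCL2, CCL20, CSF2, TNF and CXCL3. These lay between 4.11 and 6.65 on the log2 scale with OA and between 0.78 and 5.57 with CAN. The second CXCL2 probe gave 4.23 with OA but 0.58 with CAN, within the threshold. CCL20, a chemokine, read 369 in control, 4682 in CAN and 22880 in OA cells. IER3, LTB and NUAK2 were lower with CAN and higher with OA past 1.5-fold. NUAK2, a kinase of the AMPK family, read 1384, 736 and 19680, with differences of -0.77 and 3.58. Both directions of these 3 genes were kept under every scaling, the normexp correction and the authors' normalized table.

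**Figure D5:**
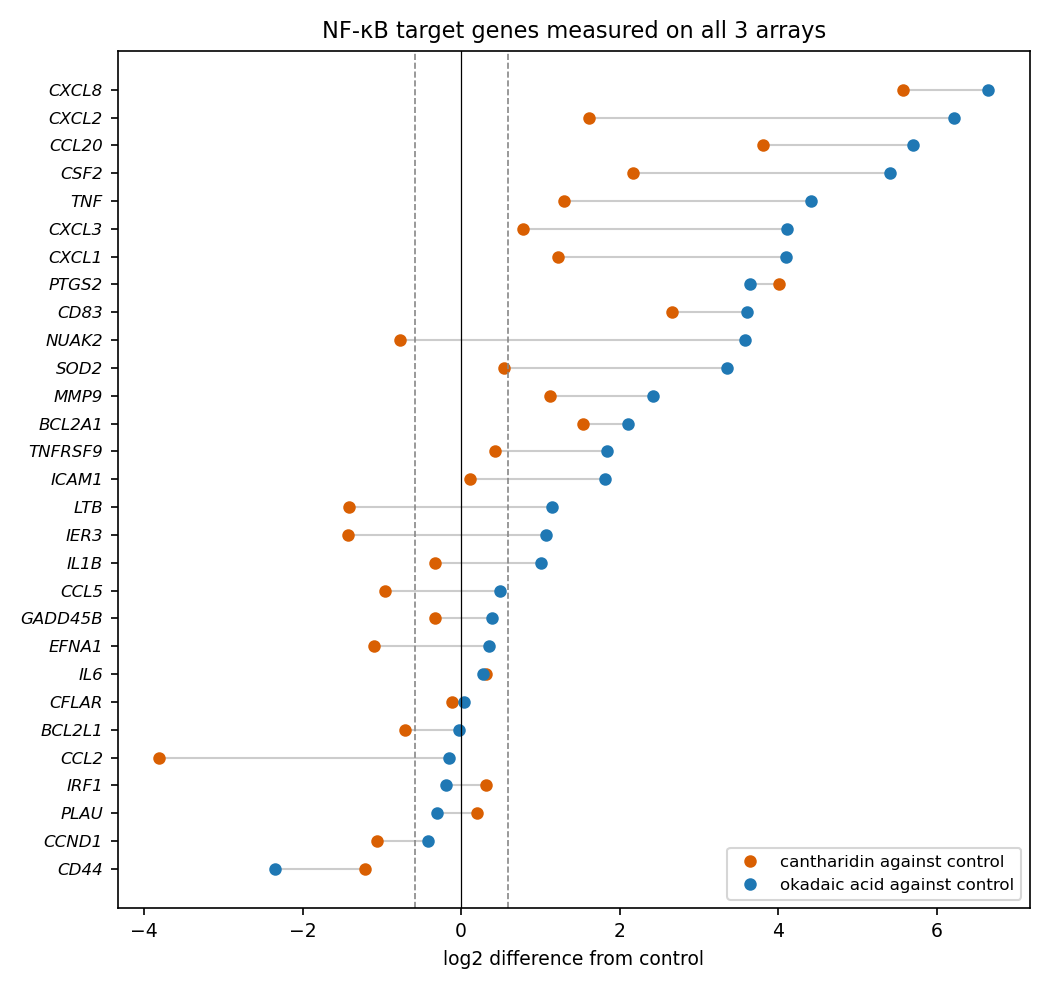
Log2 difference from control of the 29 NF-κB target genes that were measured well above background on all 3 arrays. Each gene has its own row, with its CAN and OA points joined on a shared horizontal axis and dashed lines at 1.5-fold in either direction. In 24 of these genes the OA point lies to the right of the CAN point. Both differences use the same control array, so no correlation was computed.

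Of 14 reference genes of basic cell functions, 6 were lower and 1 higher with CAN (median -0.37), and 8 were lower and 1 higher with OA (median -0.65). Without scaling, 2 were lower with OA. Among cell type markers, 6 of 7 epithelial genes were well above background on all arrays, with CDH1 above it on the control array only. Their summed signal, relative to the 75th percentile, was 584 in control, 658 in CAN and 540 in OA cells. Most of this sum was VIM, a mesenchymal gene that this line expresses, and without it the sums were 187, 231 and 287. The members moved apart, with 1 of 7 higher and 3 lower under CAN. With OA, 2 were higher and 4 lower, with a median of -0.65. The sums without VIM followed KRT18, the next brightest of these genes, at 70660, 127900 and 193300. KRT18 was 1.99-fold higher with CAN, whereas KRT8 was 2.25-fold lower, EPCAM 3.42-fold lower and CDH1 at least 6.34-fold lower. All 5 leukocyte markers were also above background, PTPRC included, with a sum of 5.50, 4.41 and 13.7. PTPRC has 4 probes, and the sum used the brightest (-0.36 with CAN and -0.13 with OA). Over its probes that could be compared, differences ran from -0.48 to 2.92 with CAN and from -0.13 to 2.08 with OA. The higher sum under OA went with CD14, at 2535, 1838 and 11040. Of 4 fibroblast markers 1 was above background on all arrays and 1 on none, with sums of 0.799, 0.611 and 0.172. COL1A1 was at least 21.9-fold lower with CAN and at least 10.9-fold lower with OA, and PDGFRB was above background with CAN only, where it was at least 11.8-fold higher. Of 3 endothelial markers, CDH5 and VWF were above it on all arrays, and PECAM1 was above it on the control array by 1 of its 3 probes and on none by its brightest. The sums over the brightest probes were 2.88, 1.85 and 1.70. The part of these differences in the NF-κB results was not tested.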

How the data were processed

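Data of 3 arrays from PANC-1 cells were grouped by sample title, 1 array per group. The authors deposited scanner files with 1-colour spot intensity values from Feature Extraction 11.0.1.1, background-subtracted and not scaled between arrays, with flags for outliers, saturation and signal well above background and an annotation on hg19. A further deposited table held normalized log2 values. Its normalization is not given in the sources used here, and it served as an alternative.

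Spots with an outlier flag were dropped, log2 intensity was averaged over the remaining spots of a probe, and each array's 75th percentile was subtracted. A gene was compared where either of the arrays had its probe well above background, and called at 1.5-fold. Genes were represented by the probe with the highest mean signal. Probe accessions were matched, with versions removed, to RefSeq (GRCh38.p14), and 25705 probes of 19699 genes could be named. NFKB2 had no probe by this match and is not analysed here. The array annotation was used for names only, and promoter coordinates come from the RefSeq table.

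The genes, lists and comparisons were chosen with earlier results of these data known. All 10 genes were named. From each other list, genes changed at least 4-fold between measured arrays were named, at most 6 by size, with any that passed 1.5-fold in opposite directions. CHUK, IKBKB, IKBKG, ITCH and the marker genes given singly were added after their values were seen.

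For single-spot probes, the error is the median spot SD of the 50 nearest 10-spot probes in signal. The number of arrays limits the precision. Alternatives were normexp correction (offset 50, on median spot and background intensity), scaling to the median or to the 75th percentile of probes above background on all arrays, unscaled values, quantile normalization, the deposited table, the median over probes, other filters and a 2-fold threshold. Keeping flagged spots was chosen after the data were seen. The scripts were tested on simulated data. Python 3.11.15 (pandas 2.3.3, numpy 2.4.6, matplotlib 3.10.9) and limma 3.58.1 in R 4.3.3 were used.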

Additional observations from a re-analysis of the deposited data

How the results depend on the processing

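The 30 differences of the 10 genes were recomputed under 8 settings, and 235 of 240 values stayed on the same side of 1.5-fold, none turning from higher to lower. The other 5 fell within the threshold: NFKB1 between the agents after normexp correction (0.57) and under median scaling (0.52), BCL3 with OA when scaled to probes above background on all arrays (-0.57) and without scaling (-0.40), and NFKBIB between the agents without scaling (-0.43). Of 66 recomputed counts, 63 stayed within 1.5 times. The count of genes lower with OA than in control went from 1 to 0 in the other 3, with scaling to probes above background on all arrays, without scaling and at a 2-fold threshold. Scaling moved the median difference over all 19699 genes, which for OA against CAN was 0.27 with the 75th percentile and 0.66 without scaling. Without scaling the median of the upstream list between the agents turned from -0.18 to 0.22. With 1 array per group, agent, culture and array cannot be told apart, and signal near background limits REL and NFKBIZ most.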
